A study of Mus musculus with 16 samples.

Results

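The comparison described here is of high against standard dietary protein in obese male mice that all received G108, a long-acting glucagon analogue that activates the glucagon receptor. Members were the genes with a mean of at least 1 TPM (reads per gene length, set to a fixed total per library) over the 16 liver libraries of the study, which left 11839 of 55487 gene identifiers, and 8 of the 16 mice carried the comparison. The groups were G108 HP, 4 mice given G108 at 2.5 nmol/kg on a high fat, high protein diet, and G108 SP, 4 mice given the same dose on a high fat, standard protein diet. Vehicle SP and vehicle HP, with 4 mice each, received no G108 and are given as the background. All mice were C57BL6/J males, 10 weeks old at the start of high fat feeding per the sample records, which lasted 8 weeks at 60 kcal% fat. Injections were subcutaneous and daily for 22 days, and livers were taken on day 25 after a 4 h fast. The methods of the study give a younger age and an earlier last day. They divide the feeding before G108 into a 60 kcal% fat diet and then the SP or HP diet, both high in fat. No genetic alteration was present, and each mouse gave 1 library, so the spread between libraries was a spread between mice of 1 cohort.

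Glucagon acts on hepatocytes through a receptor that raises cAMP, and it drives glucose output, fatty acid oxidation and the breakdown of amino acids to urea. Amino acids are therefore substrate for the pathways the hormone turns on, and the study asked whether added protein alters the liver response to the analogue. Mitochondria carry their own small genome, whose mRNA, tRNA and rRNA genes are transcribed as long precursors. The major urinary proteins (Mup) are small carriers of pheromones made in large amounts by male mouse liver and excreted in urine.

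Levels are given on both of 2 scales. TPM as deposited divide reads by gene length and fix every library to the same total, so a gain in a few abundant genes lowers the value of every other gene. Scaled TPM are the same values divided by a factor for each library (median-of-ratios), so that the typical gene is level between libraries. Differences are in log2, on log2(value + 1), as G108 HP minus G108 SP. They were tested gene by gene in limma over all 16 libraries, with Benjamini-Hochberg adjustment over the 11839 genes and a threshold of 0.05.

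No gene passed that threshold on either scale. The lowest adjusted p in limma was 0.0566 on TPM and 0.716 after scaling, and the background share of genes called was 0.0% on both. At an unadjusted p under 0.05, limma counted 44 genes higher (0.372%) and 5281 lower (44.6%) in G108 HP on TPM. After scaling it counted 353 higher (2.98%) and 286 lower (2.42%), 639 in all (5.4%), and limma with voom weights on recovered reads gave 0 calls with 654 at an unadjusted p under 0.05. The 4 HP mice all lay above the 4 SP mice for 20 genes (0.169%) on TPM and 255 genes (2.15%) after scaling. They all lay below for 2425 genes (20.5%) on TPM and 251 genes (2.12%) after scaling. The median log2 difference of all genes was -0.35 on TPM and 0.00147 after scaling, so TPM differences are best read against -0.35.

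**Figure D1:**
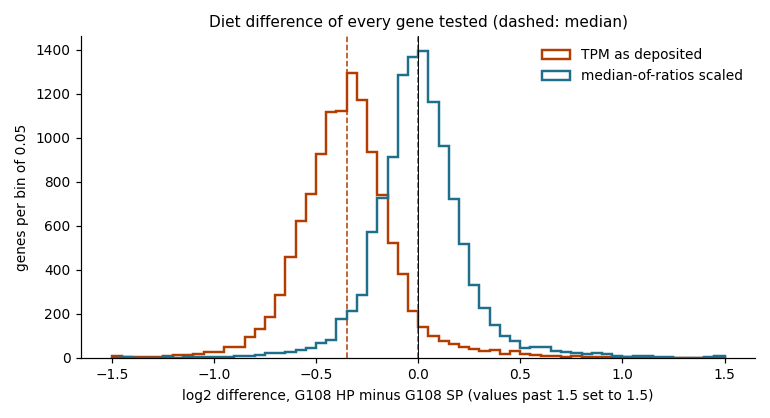
Number of genes (vertical axis, bins of 0.05) by log2 difference, G108 HP minus G108 SP (horizontal axis), for TPM as deposited and for scaled TPM, with dashed lines at the medians. The TPM distribution is centred at -0.35 and the scaled one at 0.00147, with 5.55% and 50.3% of the 11839 genes above 0.

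The count on TPM depended on single libraries and on their weights. It was 3012 genes without G108 SP mouse 1, 5047 without G108 HP mouse 4, 1736 without vehicle SP mouse 4, and 1 without G108 HP mouse 2 or without vehicle SP mouse 2. Of the 5047, 31 were higher and 5016 lower in HP. Weighting libraries by their quality gave 8502 calls on TPM and 297 after scaling, 170 higher and 127 lower. After scaling, 0 genes were called without any one of the 16 libraries. The scaling factors were 1.17, 1.32, 1.54 and 1.47 in the SP mice and 1.02, 0.944, 0.839 and 1.24 in the HP mice, where only HP mouse 4 reached into the SP range. Recovered depth was 27800000 to 35900000 reads in G108 SP and 30500000 to 36500000 in G108 HP. Correlations of log2 TPM between libraries of a group lay between 0.929 and 0.989.

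The tissue label was checked against markers. All 10 hepatocyte markers were measured, at a median scaled difference of -0.13. Of 12 lymphocyte and neutrophil markers and 6 skeletal muscle markers none reached a mean of 1 TPM, and their summed TPM in the G108 mice did not pass 6.88 and 1.41. Kupffer cell markers summed to between 39.6 and 111.3 scaled TPM in SP and 50.7 and 112.4 in HP, with 0 of 9 at an unadjusted p under 0.05. Endothelial markers summed to 42.1 to 47.1 scaled TPM in SP and 47.6 to 65.5 in HP. All 10 tested lay above 0 at a median of 0.18, and 1 of 10 did not overlap between groups (background 2.15%). Red blood cell markers stood apart after scaling: their summed scaled TPM was 656 to 919 in SP and 986 to 2388 in HP, with HP mouse 3 the highest. On TPM the sums overlapped, at 946 to 1376 in SP and 1009 to 2003 in HP. With vehicle they were 843 to 3094 scaled TPM on SP and 997 to 1307 on HP. Of 5 tested, the 4 globin genes lay above G108 SP in every G108 HP mouse after scaling (background 2.15%). Alas2, the first enzyme of haem synthesis in red cell precursors, had a scaled difference of -0.21. The part of blood RNA in the results was not tested. In bulk liver, fewer cells of a type and less RNA per cell cannot be told apart.

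The share of RNA taken by gene classes was compared next, with exact permutation tests over mice. The 13 mitochondrial mRNA genes took 11.6, 12.9, 10.7 and 10.8% of TPM in the SP mice and 13.2, 16.8, 23.6 and 12.95% in the HP mice. All HP mice lay above all SP mice, HP mouse 4 by little, and HP mouse 3 was the highest. The means were 11.5 ± 1.01% and 16.6 ± 4.96% (SD, n = 4 each), with an exact permutation p of 0.0286, the smallest that 4 against 4 allow, and 0.0929 after adjustment over the 13 shares compared. For all 37 mitochondrial genes the means were 18.9 ± 2.39% and 26.7 ± 7.70%, with overlap between groups (exact permutation p = 0.0857). With vehicle the same means were 17.5 ± 4.44% on SP and 17.75 ± 2.29% on HP.

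The Mup genes took 20.2 ± 2.46% of all TPM in SP and 24.1 ± 4.78% in HP (n = 4 each, exact permutation p = 0.2). Outside the mitochondrial genome their share was 28.4, 23.8, 21.1 and 26.6% in the SP mice and 37.02, 35.7, 28.6 and 29.3% in the HP mice. These groups did not overlap, at means of 24.95 ± 3.21% and 32.7 ± 4.32% (n = 4 each, exact permutation p = 0.0286, adjusted 0.0929). As a share of reads recovered from the TPM, Mup genes took 16.4 ± 2.83% in SP and 22.4 ± 3.62% in HP. There the groups overlapped (exact permutation p = 0.0857). Without HP mouse 3, whose mitochondrial share was 37.3%, the Mup share of all TPM differed by 5.88 percentage points (exact permutation p = 0.0286). Without any one of the other 7 G108 mice it differed by 2.11 (without HP mouse 1) to 4.59 points, with exact permutation p of 0.171 to 0.457. With vehicle the Mup share outside the mitochondrial genome was 54.9 ± 3.29% on SP and 48.0 ± 4.12% on HP.

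The remaining genes took a smaller share of TPM in HP. Genes outside the mitochondrial, Mup and abundant secreted groups took 49.3 ± 2.15% of TPM in SP and 40.95 ± 2.64% in HP (n = 4 each, exact permutation p = 0.0286, adjusted 0.0929). Cytosolic ribosomal protein genes took 0.904 ± 0.0683% and 0.667 ± 0.0784%, again with no overlap (exact permutation p = 0.0286, adjusted 0.0929). Alb, the gene of serum albumin, took 1.84 ± 0.461% and 1.10 ± 0.281% (exact permutation p = 0.0571). For the difference between the G108 and vehicle diet effects, G108 and vehicle labels were exchanged within each diet, over 4900 relabellings. No share had an exact permutation p under 0.05 (lowest 0.0531, cytosolic ribosomal proteins). Such relabellings also carry any effect of G108 itself, so this test cannot decide whether the 2 diet effects differed.

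**Figure D2:**
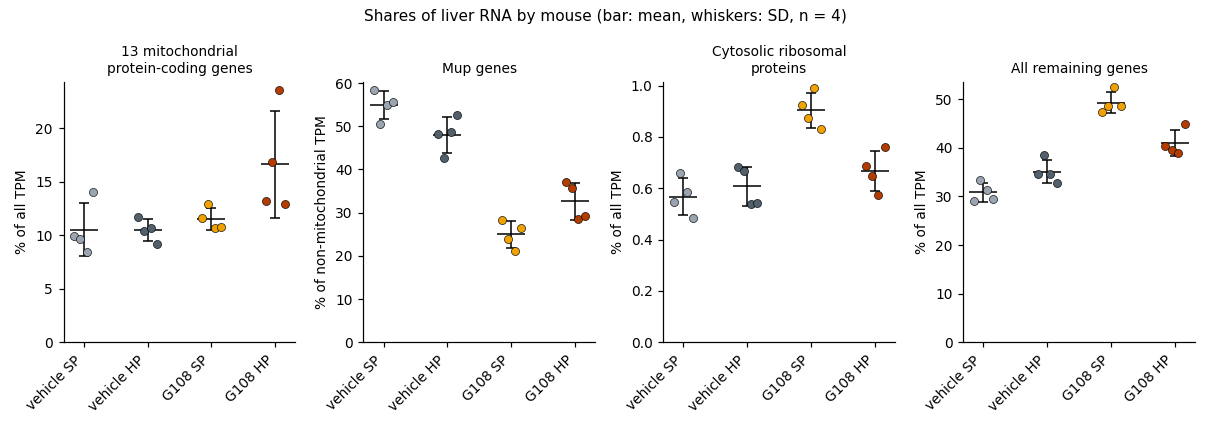
Share of TPM (vertical axes, percent) in each mouse of the 4 groups for mitochondrial mRNA genes, Mup genes (of non-mitochondrial TPM), cytosolic ribosomal proteins and all remaining genes, where horizontal bars are means and whiskers SD (n = 4). In each panel the G108 HP mice lie wholly above or below the G108 SP mice. Of the 13 shares compared, only those whose G108 groups did not overlap are drawn, so the separation follows from that choice. Means of G108 HP and G108 SP are 16.6 and 11.5%, 32.7 and 24.95%, 0.667 and 0.904%, and 40.95 and 49.3%.

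Every gene of the mitochondrial genome had a higher mean in HP than in SP with G108, on both scales. After scaling, the 13 mRNA genes had a median log2 difference of 0.93 and the 22 tRNA genes one of 0.94, against 0.00147 for all genes. At an unadjusted p under 0.05 were 13 of 13 mRNA genes (background 2.98%) and 15 of 22 tRNA genes, and 7 mRNA and 5 tRNA genes did not overlap between groups (background 2.15%). On TPM the medians were 0.48 and 0.49, against -0.35 for all genes. There 9 of 13 and 8 of 22 were higher at an unadjusted p under 0.05 (background 0.372%). None passed the adjusted threshold. Without HP mouse 3 the scaled median of the mRNA genes was 0.66, with 11 of 13 at an unadjusted p under 0.05, and without other G108 libraries it ran from 0.84 to 1.13. The tRNA genes without HP mouse 3 had a median of 0.65, with 10 of 22 at an unadjusted p under 0.05. Over all genes 386 of 11839 were at that p without HP mouse 3, in either direction. HP mouse 3 was also the highest for summed red blood cell markers, whose part in this result was not tested.

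mt-Atp8, a subunit of ATP synthase, had 15126, 17278, 16568 and 14678 TPM in the SP mice and 19716, 26225, 37048 and 19544 TPM in the HP mice. HP was above SP in every mouse, at a log2 difference of 0.64 ± 0.19 (SE) on TPM and 1.09 ± 0.29 after scaling (limma adjusted p = 0.0728 and 0.800). mt-Co1, the catalytic subunit of cytochrome c oxidase, had 18902, 19741, 15516 and 15707 TPM in SP and 19999.8, 24383, 34162 and 19827 TPM in HP, which did not overlap. Its scaled values overlapped between groups by 1 pair, at a difference of 0.92 ± 0.30. mt-Nd5, a complex I subunit, had the scaled values 1673, 2005, 1238 and 1745 in SP and 2454, 2895, 5398 and 2046 in HP, with no overlap. Both rRNA genes overlapped widely, at scaled differences of 0.59 ± 0.77 for mt-Rnr1 and 0.68 ± 0.66 for mt-Rnr2.

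The largest mitochondrial differences sat in 3 adjacent tRNA genes between mt-Nd4 and mt-Nd5, with mt-Tr and mt-Tk next among tRNA genes that did not overlap. Positions are on GRCm38, plus strand, from the GENCODE annotation. These 5 are printed 5′ to 3′ with the anticodon in capitals, since they are the tRNA genes whose diet groups did not overlap after scaling.
mt-Tk (lysine, chrM:7700-7764): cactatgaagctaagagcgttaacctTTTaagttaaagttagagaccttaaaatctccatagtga
mt-Tr (arginine, chrM:9808-9875): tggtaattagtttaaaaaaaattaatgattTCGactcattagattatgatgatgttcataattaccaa
mt-Th (histidine, chrM:11546-11612): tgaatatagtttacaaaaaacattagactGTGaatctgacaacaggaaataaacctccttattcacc
mt-Ts2 (serine, chrM:11613-11671): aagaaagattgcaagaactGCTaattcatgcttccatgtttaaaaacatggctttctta
mt-Tl2 (leucine, chrM:11671-11741): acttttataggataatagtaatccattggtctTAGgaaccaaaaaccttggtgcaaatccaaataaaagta

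mt-Th (ENSMUSG00000064364), the first of the 3 adjacent genes, had 824, 591, 301 and 349 TPM in the SP mice and 958, 860.2, 2902 and 2352 TPM in the HP mice. HP mice 3 and 4 were far above the rest, while HP mice 1 and 2 were just above SP mouse 1. The difference was 1.69 ± 0.49 on TPM and 2.14 ± 0.52 after scaling (limma adjusted p = 0.0728 and 0.716). mt-Ts2 and mt-Tl2 showed the same mice high, at scaled differences of 2.08 ± 0.54 and 2.06 ± 0.55. With vehicle, mt-Th had 322, 1331, 546 and 1097 TPM on SP and 1196, 779, 571 and 609 TPM on HP. That range holds the values of G108 HP mice 1 and 2. mt-Tr had 394, 411, 260.2 and 228 TPM in SP and 454, 534, 1001 and 683 TPM in HP, a scaled difference of 1.47 ± 0.34. mt-Tk had 163, 109, 100.1 and 72.5 TPM in SP and 166, 186, 343 and 266 TPM in HP, a scaled difference of 1.55 ± 0.39. In both, every HP mouse was above every SP mouse and HP mouse 3 was the highest.

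**Figure D3:**
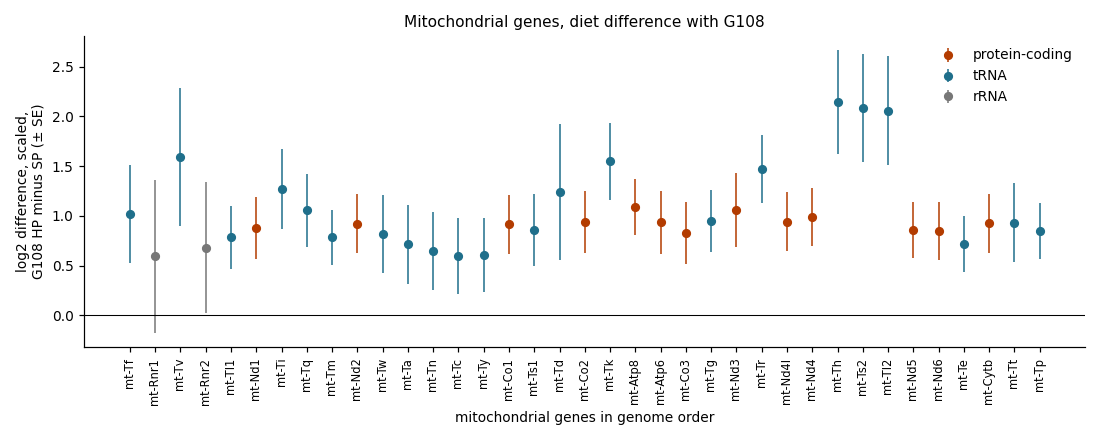
Log2 difference in scaled TPM, G108 HP minus G108 SP, with its SE (vertical axis), for the 37 mitochondrial genes in genome order (horizontal axis), coloured by class. All lie above 0, and mt-Th, mt-Ts2 and mt-Tl2 stand highest at 2.14, 2.08 and 2.06.

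Reads over a tRNA gene may come from the tRNA or from a longer RNA that spans it, and the table does not separate them. The 5 tRNA genes printed share 0% of their sequences of 31 bases with any other annotated gene. By contrast mt-Co2 shares all of its own and mt-Atp6 99.5% with other annotated genes, nuclear or mitochondrial, which the search did not separate. Gm28439, a nuclear copy on chromosome 1, had a scaled difference of 1.07 ± 0.26. It shares all of its own, so its reads cannot be told from those of mitochondrial genes. Only annotated transcripts were searched, so an unannotated nuclear copy of a tRNA gene would not count towards the 0%. mt-Tk lies between mt-Co2 and mt-Atp6. The part of unannotated copies in the tRNA values was not tested. Of the 13 mRNA genes, 13 had an unadjusted p under 0.05 for the interaction of G108 and diet after scaling (background 7.21%), and 12 of 22 tRNA genes did. No interaction passed the adjusted threshold in limma.

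Nuclear genes of the respiratory chain mostly lay above 0 after scaling and below 0 on TPM. Of 80 respiratory chain subunits, 68 had a scaled difference above 0 (background 50.3%), at a median of 0.20, with 6 higher at an unadjusted p under 0.05 (background 2.98%) and 0 lower. On TPM 3 of 80 lay above 0 (background 5.55%) and the median was -0.23, against -0.35 for all genes. With TPM rescaled without mitochondrial genes the list's median was -0.09 with 27 of 80 above 0, against a median of -0.25 for all genes. Nuclear-retained RNA, a list kept as a sign of RNA quality, had a scaled median of 0.20 with 5 of 6 tested above 0 and 0 at an unadjusted p under 0.05, and snoRNA genes had one of 0.18 over 210 genes. The nuclear-retained list summed to 90.3 to 144.6 scaled TPM in SP and 111.3 to 162.1 in HP, highest in HP mouse 3. Its part in the result was not tested. Cycs, which encodes cytochrome c, had the scaled values 27.8, 29.0, 24.1 and 26.3 in SP and 36.2, 35.9, 34.1 and 30.7 in HP, with no overlap, a difference of 0.34 ± 0.10 (limma adjusted p = 0.804). Uqcrb, a complex III subunit, differed by 0.44 ± 0.17 with overlap. Without G108 SP mouse 1 the number higher at an unadjusted p under 0.05 was 28 of 80, without HP mouse 4 it was 13. Without HP mouse 3 it was 3, and without HP mouse 2, SP mouse 3 or SP mouse 4 it was 1. The count over all 11839 genes, in either direction, moved with the same omissions. It was 639 with every library, 992 without SP mouse 1, 967 without HP mouse 4 and 386 without HP mouse 3. Without HP mouse 2, SP mouse 3 or SP mouse 4 it was 450, 383 and 450. Of 78 mitochondrial ribosomal proteins 50 lay above 0 at a median of 0.06, and Ppargc1a, a coactivator of mitochondrial genes, differed by -0.17 ± 0.14.

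The Mup genes split by their place in the cluster on chromosome 4. Of 22 Mup genes 21 had a scaled difference above 0, at a median of 0.75. Among the 22, 17 were higher and 1 lower at an unadjusted p under 0.05 (background 2.98% and 2.42%). In 7 every HP mouse was above every SP mouse (background 2.15%). On TPM the median was 0.30, with 6 higher and 2 lower at an unadjusted p under 0.05 (background 0.372% and 44.6%). The 17 genes from Mup6 to Mup19 in chromosome order lay between 0.61 and 1.25 after scaling. The distal genes Mup5, Mup20, Mup3 and Mup21 lay between -0.73 and 0.26. No Mup gene passed the adjusted threshold, and leaving out single G108 libraries moved the scaled median between 0.60 and 0.90.

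Mup7 (ENSMUSG00000073842) had 8776, 7032, 6077 and 10598 TPM in the SP mice and 19188, 15044, 10299.5 and 12183 TPM in the HP mice. On TPM HP mouse 3 lay among the SP values, and after scaling every HP mouse was above every SP mouse. The difference was 0.80 ± 0.21 on TPM and 1.25 ± 0.28 after scaling (limma adjusted p = 0.0721 and 0.716). Mup15 and Mup1 also did not overlap after scaling, at differences of 1.16 ± 0.28 and 0.98 ± 0.26. Mup10, the most abundant Mup gene of those named here, had 30907, 25873, 25588 and 30821 TPM in SP and 37142, 34622, 24388 and 32564 TPM in HP, a scaled difference of 0.62 ± 0.19 with overlap.

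Mup20 (ENSMUSG00000078672), which encodes darcin, the male pheromone that attracts females, stood the other way. It had 6208, 11653, 11116 and 10151 TPM in the SP mice and 4366, 5021, 3097 and 4586 TPM in the HP mice, so every HP mouse was below every SP mouse on TPM. The difference was -1.18 ± 0.28 on TPM and -0.73 ± 0.23 after scaling, where the groups overlapped by 1 pair (limma adjusted p = 0.0721 and 0.804). Mup-ps19, a pseudogene that shares 94.1% of its sequences of 31 bases with other genes, stood with it at 3872, 8425, 8219 and 7769.7 TPM in SP and 2734, 2646, 1657 and 3257 TPM in HP. Mup3 had a difference of -0.36 ± 0.16 on TPM and 0.09 ± 0.12 after scaling.

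Mup4, a Mup gene expressed mainly outside the liver, was near the limit of detection in SP, at 0.0499, 0, 0 and 0 TPM. In HP it had 10.5, 3.64, 56.3 and 4.49 TPM, with HP mouse 3 far above the others, and vehicle means were 0.884 ± 1.11 on SP and 2.43 ± 3.21 on HP. Its fitted difference of 3.50 ± 0.79 after scaling rests on the pseudocount, since 3 of 4 SP mice were at 0. Mup-ps12, a pseudogene, had 14.2, 9.93, 4.39 and 8.66 TPM in SP and 27.5, 26.7, 28.6 and 19.9 TPM in HP, which did not overlap. Mup genes are near-identical copies: of sequences of 31 bases Mup4 shares 38% with other genes, Mup20 64.5%, Mup1 70.2%, Mup10 83.2% and Mup15 all, so values of single genes from Mup6 to Mup19 are uncertain. Of the 22 genes, 19 had an unadjusted p under 0.05 for the interaction of G108 and diet after scaling (background 7.21%), with a median diet difference of -0.43 under vehicle.

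**Figure D4:**
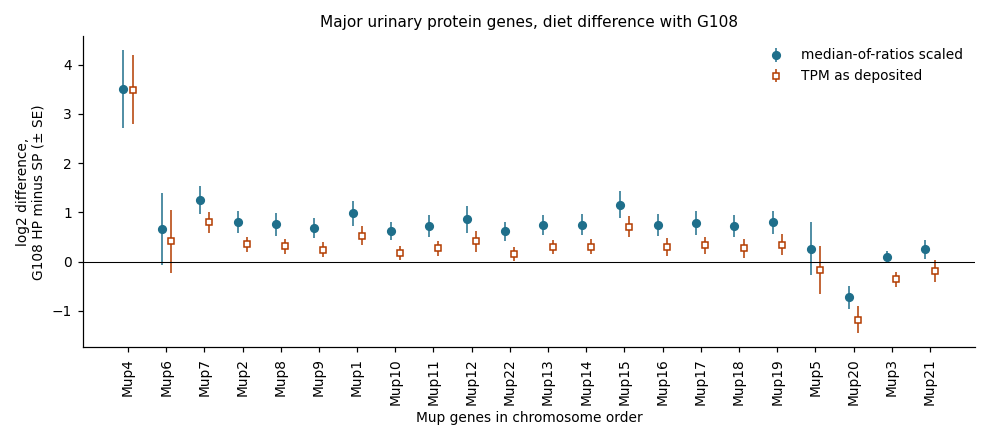
Log2 difference, G108 HP minus G108 SP, with its SE (vertical axis), for the 22 Mup genes in chromosome order (horizontal axis), on scaled TPM and on TPM as deposited. Mup4 is highest at 3.50 and Mup20 lowest at -0.73 after scaling, and the genes from Mup6 to Mup19 lie between 0.61 and 1.25.

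Genes of growth hormone signalling, which drives male-biased liver expression, lay mostly below 0. Of 13 tested genes of the growth hormone and STAT5 list 4 lay above 0 after scaling, at a median of -0.12, and 0 were at an unadjusted p under 0.05. Socs2, a feedback inhibitor of the receptor, had 0.975, 0.991, 2.12 and 1.33 TPM in SP and 0.622, 0.340, 0.664 and 0.429 TPM in HP, without overlap on TPM, and a scaled difference of -0.37 ± 0.23. Igf1 and Stat5b were both below SP in every HP mouse on TPM and differed by 0.06 ± 0.13 and -0.10 ± 0.09 after scaling. Of 15 male-biased liver genes, Mup20 and Mup3 among them, 6 lay above 0, at a median of -0.13. Among them 2 were higher and 2 lower at an unadjusted p under 0.05 (background 2.98% and 2.42%).

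Fatty acid oxidation genes and targets of PPAR alpha, the receptor that senses fatty acids in fasting liver, mostly had lower means in HP on both scales. Of 24 PPAR alpha targets 1 lay above 0 after scaling (background 50.3%), at a median of -0.30. Among the 24, 3 were lower at an unadjusted p under 0.05 (background 2.42%) and 4 had no overlap (background 2.12%). On TPM the median was -0.70. Of 18 oxidation enzymes 1 lay above 0, at a median of -0.24, and 0 were at an unadjusted p under 0.05. All 4 ketone body genes lay below 0, at a median of -0.34. Without HP mouse 3 these medians were -0.15, -0.12 and -0.19, and the number of PPAR alpha targets lower at an unadjusted p under 0.05 was 1. It was also 1 without SP mouse 4, and 5 without HP mouse 4. Over all 11839 genes the count at an unadjusted p under 0.05, in either direction, moved too. It was 639 with every library, 386 without HP mouse 3, 450 without SP mouse 4 and 967 without HP mouse 4.

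Acot2 (ENSMUSG00000021226), a mitochondrial acyl-CoA thioesterase, had 2.91, 4.10, 4.72 and 4.71 TPM in the SP mice and 1.76, 1.42, 1.08 and 1.88 TPM in the HP mice. The groups did not overlap on either scale, and the scaled difference was -0.66 ± 0.15 (limma adjusted p = 0.716). Its cytosolic relative Acot1 had a scaled difference of -0.69 ± 0.26 with no overlap, and the 2 genes share 37.8% (Acot2) and 22.8% (Acot1) of their sequences of 31 bases with other genes. Plin2, the coat protein of lipid droplets, had 77.0, 80.1, 77.1 and 79.3 TPM in SP and 49.1, 39.1, 25.8 and 55.3 TPM in HP, a scaled difference of -0.49 ± 0.22. Every HP mouse was below every SP mouse, and HP mouse 3 was the lowest. Crot, which moves shortened fatty acids out of peroxisomes, had 39.1, 53.3, 53.7 and 53.8 TPM in SP and 28.8, 20.3, 18.1 and 35.1 TPM in HP, again with no overlap.

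Cpt1a, which controls fatty acid entry into mitochondria, had 33.4, 47.5, 55.7 and 59.3 TPM in SP and 30.6, 19.8, 18.8 and 42.4 TPM in HP, a scaled difference of -0.40 ± 0.19 with overlap. Cyp4a14, a PPAR alpha target of omega oxidation, had a scaled difference of -0.86 with a 95% interval of -2.06 to 0.35, and one of 1.21 under vehicle. Fgf21, a hormone released by fasted liver, differed by -0.32 (95% interval -1.14 to 0.49). Hsd17b13, a lipid droplet enzyme, was lower in every HP mouse on both scales, at -0.38 ± 0.16, while Fitm1, which partitions lipid into droplets, was higher in every HP mouse after scaling, at 0.62 ± 0.20.

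Of 14 tested genes of glycolysis and glucose uptake 6 lay above 0 after scaling at a median of -0.11, of 12 glycogen genes 4 at -0.18, and of 11 gluconeogenesis genes 2 at -0.19. Pklr (ENSMUSG00000041237), liver pyruvate kinase, had 58.5, 60.1, 96.6 and 91.8 TPM in SP and 30.2, 33.1, 22.5 and 52.7 TPM in HP with no overlap on either scale, at -0.71 ± 0.27 after scaling. Gys2, liver glycogen synthase, had 85.6, 102, 128 and 98.9 TPM in SP and 62.0, 57.0, 43.1 and 72.7 TPM in HP, also without overlap on either scale, at -0.37 ± 0.13 after scaling (limma adjusted p = 0.0721 on TPM and 0.828 scaled).

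The glucagon receptor gene Gcgr had 227, 170.3, 176 and 154 TPM in the SP mice and 140.5, 163, 172 and 144 TPM in the HP mice, which overlapped. Of 21 tested genes of the glucagon and cAMP response 10 lay above 0 after scaling, at a median of -0.04. Among them 1 was lower and 0 higher at an unadjusted p under 0.05 (background 2.42% and 2.98%). Among gluconeogenic enzymes Pck1, which makes phosphoenolpyruvate, differed by 0.14 (95% interval -0.67 to 0.94). G6pc, which releases free glucose, differed by 0.28 (95% interval -0.26 to 0.82). Fatty acid synthesis genes were spread around 0 (6 of 14 above, median -0.08), with Fasn, fatty acid synthase, at 0.27 (95% interval -0.56 to 1.09).

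**Figure D5:**
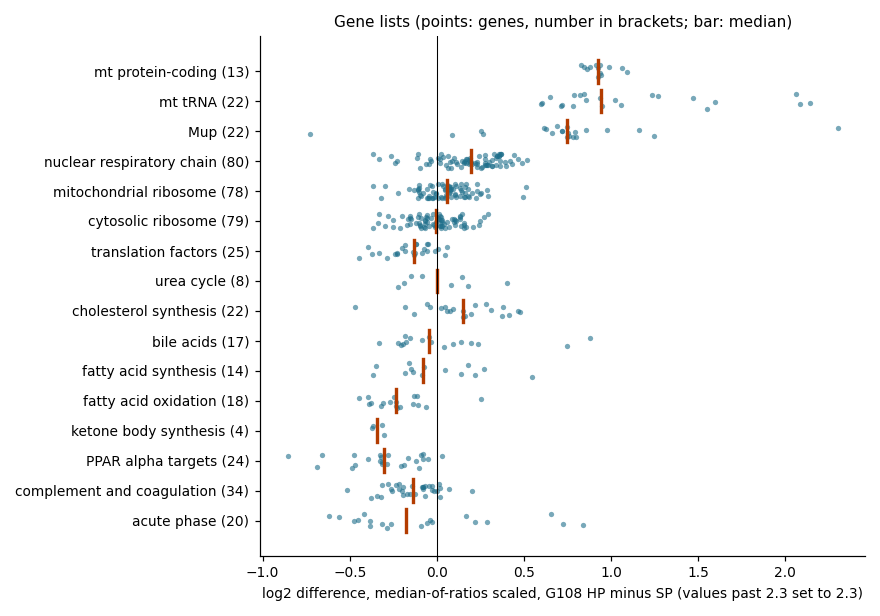
Log2 difference in scaled TPM, G108 HP minus G108 SP (horizontal axis), for every tested gene of 16 lists (rows, numbers of genes in brackets), where each point is a gene and each bar the list's median. Mitochondrial and Mup genes lie to the right with medians of 0.93, 0.94 and 0.75, the respiratory chain at 0.20, and oxidation, ketone body and PPAR alpha lists to the left at -0.24, -0.34 and -0.30.

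Urea cycle genes, which turn amino acid nitrogen into urea, lay on both sides of 0 after scaling under G108. Of 8 genes 4 lay above 0 after scaling, at a median of -0.00187, with 1 higher at an unadjusted p under 0.05 (background 2.98%). On TPM 0 of 8 lay above 0 at a median of -0.44. Asl, argininosuccinate lyase, had the scaled values 147, 185, 152 and 152 in SP and 191, 185, 226 and 239 in HP, which overlapped by 1 pair, at 0.40 ± 0.18. Cps1, carbamoyl phosphate synthetase, had 305, 568, 688 and 774 TPM in SP and 392, 248, 221 and 664 TPM in HP, and its scaled 95% interval of -0.95 to 0.51 spans 0. Ass1, Arg1 and Otc differed by 0.18 ± 0.27, 0.08 ± 0.17 and 0.14 ± 0.12 after scaling.

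Amino acid breakdown lists had medians close to 0. The scaled medians were 0.15 for phenylalanine and tyrosine breakdown (5 of 8 above 0), -0.04 for serine, threonine and glycine (3 of 11), 0.04 for tryptophan (5 of 9), -0.06 for branched-chain amino acids (4 of 18) and -0.08 for methionine and cysteine (3 of 10). The largest differences were those of Acmsd and Csad. Acmsd, which steers tryptophan carbon away from NAD synthesis, had the scaled values 5.63, 9.98, 7.54 and 9.89 in SP and 16.1, 13.3, 13.999 and 18.01 in HP. Every HP mouse was above every SP mouse, at 0.84 ± 0.27 (limma adjusted p = 0.804), and the vehicle difference was 0.89. Csad, an enzyme of taurine synthesis, had the scaled values 10.2, 24.2, 44.3 and 27.3 in SP and 11.5, 17.2, 10.3 and 17.8 in HP, at -0.73 ± 0.39. Tat, tyrosine aminotransferase, and Sds, serine dehydratase, both classical glucagon targets, differed by 0.29 ± 0.31 and 0.24 ± 0.29. Amino acid transporters had a median of -0.05 (6 of 16 above 0), with Slc38a3, the glutamine carrier, at 0.0021 ± 0.19.

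On TPM the median of 22 cholesterol synthesis genes was -0.27 with 2 of 22 above 0. After scaling 17 lay above 0 at a median of 0.15, with 1 higher at an unadjusted p under 0.05 (background 2.98%). Without G108 SP mouse 1 the median was 0.00753 with 11 of 22 above 0, and without HP mouse 4 it was 0.05. Insig1, the sterol-sensitive brake on this pathway, had the scaled values 47.6, 58.0, 72.4 and 58.3 in SP and 95.6, 91.8, 63.3 and 80.2 in HP, at 0.48 ± 0.17 with overlap. Cyp7a1, the rate-limiting enzyme of bile acid synthesis, had 12.7, 23.5, 31.6 and 29.9 TPM in SP and 35.6, 12.3, 29.1 and 79.7 TPM in HP, at 0.88 ± 0.44 after scaling. Cyp8b1, which makes cholic acid, differed by 0.74 ± 0.35 with overlap. Abcb4, which exports phospholipid to bile, and Abcg8, a sterol exporter subunit whose gene overlaps Abcg5, were below SP in every HP mouse on TPM and differed by -0.33 ± 0.11 and -0.40 ± 0.15 after scaling.

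Drug metabolism genes held 1 large single difference. Cyp3a11 (ENSMUSG00000056035), the main xenobiotic oxidase of its family in mouse liver, had 89.1, 25.7, 53.7 and 28.4 TPM in the SP mice and 21.4, 7.69, 7.56 and 11.8 TPM in the HP mice. Every HP mouse was below every SP mouse on TPM, at -1.88 ± 0.43, while after scaling HP mouse 1 overlapped with SP mice 2 and 4, at -1.44 ± 0.42 (limma adjusted p = 0.0721 and 0.800). The phase I list as a whole had a scaled median of -0.10 with 8 of 28 above 0. Among conjugation enzymes, 4 of 29 lay above SP in every HP mouse after scaling (background 2.15%). They included the glutathione transferases Gsta1 and Gsta2, near-identical in part, at 1.05 ± 0.38 and 0.68 ± 0.23, and the sulfotransferase Sult1d1 at 0.36 ± 0.10.

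Genes of protein synthesis and turnover showed how the scale sets the direction. Of 79 cytosolic ribosomal proteins 0 lay above 0 on TPM, at a median of -0.44, and 56 were below SP in every HP mouse (background 20.5%). After scaling 39 of 79 lay above 0, at a median of -0.00257, and 0 were at an unadjusted p under 0.05. Translation factors had a scaled median of -0.13 with 3 of 25 above 0. Eif4b, which helps ribosomes load onto mRNA, had 35.3, 39.4, 54.6 and 45.5 TPM in SP and 26.3, 22.1, 18.8 and 34.7 TPM in HP, below in every mouse on both scales, at -0.33 ± 0.11 after scaling. Proteasome and autophagy lists had scaled medians of -0.07 and -0.11, with 0 genes at an unadjusted p under 0.05 in either. Endoplasmic reticulum chaperones had one of -0.015.

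Of 25 abundant secreted plasma proteins other than Mups 5 lay above 0 after scaling, at a median of -0.14. Among them 2 were lower at an unadjusted p under 0.05 (background 2.42%). Of 34 complement and coagulation genes 6 lay above 0 after scaling, at a median of -0.14. Here too 2 were lower at an unadjusted p under 0.05 (background 2.42%). C3, the central complement protein, had 589.6, 810.1, 1052 and 1069.8 TPM in SP and 535, 303, 310.1 and 735 TPM in HP, with a scaled difference of -0.51 ± 0.24. Itih4, an acute phase inhibitor chain, had 279, 302, 387 and 401 TPM in SP and 189.6, 125, 108.1 and 261 TPM in HP, below in every mouse on both scales, at -0.62 ± 0.19 (limma adjusted p = 0.800). Orm1 and Orm2, acute phase carriers that share 27.5% and 34.1% of their sequences of 31 bases with other genes, lay the other way at 0.65 ± 0.19 and 0.73 ± 0.21. The acute phase list thus held 3 genes higher and 2 lower at an unadjusted p under 0.05 (background 2.98% and 2.42%). Its median was -0.18 over 20 genes.

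Other genes were named for the smallest unadjusted p among those whose groups did not overlap. Mir2861, annotated inside the Cdk9 gene so that its reads cannot be told from that transcript, had 37.04, 37.4, 46.4 and 45.3 TPM in SP and 16.4, 17.7, 15.03 and 28.8 TPM in HP. Its scaled difference was -0.65 ± 0.12, and Mir3960 beside it differed by -0.62 ± 0.14. Zfp524 (ENSMUSG00000051184), a zinc finger gene, shared the lowest adjusted p on TPM with Gm44973, which overlaps it, and had 10.6, 11.3, 12.9 and 9.32 TPM in SP and 5.51, 4.99, 4.17 and 6.997 TPM in HP (limma adjusted p = 0.0566 on TPM and 0.716 scaled). Gm44973 shares 97.2% of its sequences of 31 bases with other genes and differed alike, at -0.49 ± 0.10. Serpina11, a liver serpin, and Mug2, a protease inhibitor of plasma, differed by -0.48 ± 0.12 and -0.69 ± 0.18, without overlap on either scale.

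Some of these genes separated the groups on TPM alone. Hnrnpl, an RNA-binding splicing factor, had 23.7, 22.2, 23.8 and 22.7 TPM in SP and 16.1, 15.9, 15.9 and 16.5 TPM in HP, a difference of -0.49 ± 0.10 on TPM. After scaling it was -0.07 ± 0.13 with overlap. Gsdmd, a pore-forming protein of inflammatory cell death, had 16.8, 16.9, 16.9 and 17.6 TPM in SP and 10.4, 9.17, 9.91 and 12.4 TPM in HP, and -0.24 ± 0.11 after scaling. Soat2, which esterifies cholesterol, went from -0.74 ± 0.16 on TPM to -0.31 ± 0.19 after scaling.

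Conversely Mettl5, which methylates ribosomal RNA, and Smyd2, a protein methyltransferase, separated the groups after scaling alone. Mettl5 had the scaled values 5.99, 6.26, 6.37 and 5.50 in SP and 8.22, 8.72, 7.42 and 7.13 in HP, at 0.33 ± 0.08 against -0.06 ± 0.15 on TPM. Smyd2 differed by 0.46 ± 0.11 after scaling and 0.08 ± 0.16 on TPM. The remaining genes chosen in the same way were Nectin2, Tnfsf12, Mfsd4b1, Abca8b, Usf2-ps1 and 2410006H16Rik, lower at scaled differences from -0.43 to -0.51 except Abca8b at -0.30 and 2410006H16Rik at -0.36. Snord58b, Gm22200 and Gm4956 were higher, at 1.14 ± 0.29, 1.43 ± 0.46 and 0.74 ± 0.19.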

How the data were processed

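Liver RNA from 16 mice was sequenced by a commercial provider. The processing notes of the submitters name FastQC 0.11.8, HISAT2 2.0.5, featureCounts and DESeq2 1.36.0, and the build GRCm38. The authors deposited TPM per gene for each library, normalized for gene length and library total, and strandedness is not given in the sources used here. DESeq2, which the authors used, was not run here. It needs counts, which TPM do not give directly, and reads recovered from the TPM were fitted with voom alone.

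Members and gene lists were chosen with earlier results of these data known. Genes with a mean of at least 1 TPM were kept (11839), and log2(TPM + 1) was fitted over all 16 libraries in limma 3.58.1 (R 4.3.3) with a variance trend and Benjamini-Hochberg adjustment. The fit was repeated on TPM divided by median-of-ratios factors, taken over the 11591 genes above 0 in every library. The pseudocount understates differences of low genes. For shares, the exact permutation tests were two-sided, over 70 relabellings of 4 against 4. Reads were recovered from the steps of low TPM values: of 139252 low values 98.7% came out whole within a tolerance of 0.02 read, and the depth was 27800000 to 45000000 reads. Recovered reads were fitted with voom as an alternative. Gene names, lengths, tRNA sequences and shared sequences of 31 bases came from GENCODE transcripts. The scripts were tested on simulated data. Named genes were, on each scale and in each direction, the 12 genes of smallest unadjusted p with a mean of at least 5 TPM whose groups did not overlap, since none was called. From each list up to 4 members of smallest p on either scale were added, with the best known members, and Gcgr. Alternatives covered the pseudocount, the filter, library weights, the replicate number as a block, rescaling and leaving out each library. After the data were seen, removal of each library's GC slope was added. Results of a few genes are not reported here.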

Additional observations from a re-analysis of the deposited data

Results flagged for a closer look

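Of 96 group values tested, from 35 genes and 13 shares, 5 held a mouse whose gap to the nearest other mouse, as a share of the range of its group of 4, passed Dixon's 95% critical value, and chance alone gives about 1 in 20. G108 SP mouse 1 was highest for Mup4 at 0.0499 TPM, where the other SP mice were at 0. G108 HP mouse 3 was highest for Mup4 at 56.3 TPM. G108 SP mouse 4 was highest for Gsdmd at 17.6 TPM. G108 HP mouse 3 was lowest for Smyd2 at 5.39 TPM. G108 SP mouse 1 was lowest for Crot at 39.1 TPM.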

How the results depend on the processing

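For HP against SP with G108 on TPM, limma called 2 genes at a mean of at least 5 TPM and 8502 with array quality weights, and leaving out 1 library in turn gave 0 to 5047. After scaling it called 297 with array quality weights and 0 under every other alternative run. For the diet effect under vehicle on TPM, it called 1 gene with no filter on low values and 79 with array quality weights. For the interaction on TPM, it called 1 with no filter and 7267 with array quality weights, and 0 to 5202 without 1 library. Why weights and single libraries moved these counts was not tested. The mitochondrial share differed by 5.11 percentage points for the 13 mRNA genes alone (exact permutation p = 0.0286). For all 37 it differed by 4.24 (without HP mouse 3) to 9.68 without 1 library, with exact permutation p of 0.0571 to 0.2. As a share of recovered reads, all 37 differed by 4.95 (exact permutation p = 0.0857). The Mup share outside the mitochondrial genome differed by 7.71 (exact permutation p = 0.0286), and the Mup share of recovered reads by 5.94 (exact permutation p = 0.0857). The Mup share of all TPM, 3.85 with every library, differed by 2.11 to 5.88 without 1 library. With the replicate number as a block, 0 genes were called on either scale, with 4659 (TPM) and 568 (scaled) at an unadjusted p under 0.05. Deviations of same-numbered G108 mice correlated at -0.262 to 0.443, so the numbers were not treated as pairs. Of 297 named genes, 76 had a TPM difference that changed sign after scaling. Removing the GC slope of each library left 0 calls and 679 genes at an unadjusted p under 0.05 after scaling. Depth limits low genes such as Mup4, and the 4 mice per group limit exact tests to p = 0.0286.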

Other observations

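Clock genes had a scaled median of 0.04 with 8 of 16 above 0, and Per2 and Ciart, repressors of the circadian loop, lay above SP in every HP mouse after scaling, at 0.65 ± 0.36 and 0.68 ± 0.32. Interferon response genes had a median of -0.14 with 5 of 18 above 0 (background 50.3%), and 2 were lower at an unadjusted p under 0.05 (background 2.42%). Hepatokines had a median of 0.03. Tsku, a secreted liver protein, had the scaled values 17.2, 14.5, 19.4 and 32.8 in SP and 33.5, 36.98, 44.95 and 42.3 in HP, with no overlap, at 0.94 ± 0.40 (limma adjusted p = 0.858) against -0.83 under vehicle. Hamp and Hamp2, the hepcidin genes of iron control, differed by 0.29 ± 0.41 and 0.84 ± 0.39 with overlap. Ddit4, an inhibitor of mTORC1, lay above SP in every HP mouse after scaling, at 0.56 ± 0.21, and at 0.46 under vehicle.

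Zonated hepatocyte genes had scaled medians of 0.06 for periportal genes (6 of 10 above 0) and 0.05 for pericentral genes (8 of 11). The diet differences under vehicle, which share no library with those under G108, had medians farther above 0 for amino acid genes, a difference that was not tested over lists. The urea cycle list had a scaled median of 0.29 under vehicle and -0.00187 under G108. Phenylalanine and tyrosine breakdown had 0.36 and 0.15, and serine, threonine and glycine breakdown 0.32 and -0.04. Got1 and Oat were chosen after their values were seen. Got1, cytosolic aspartate aminotransferase, differed by 1.20 under vehicle and -0.16 under G108, with an unadjusted limma p of 0.00349 for the interaction. Oat, ornithine aminotransferase, differed by 0.77 and 0.11, with 0.0491 for the interaction. Over 11839 genes the diet differences with G108 and with vehicle had r = -0.314 after scaling, a description across genes that are not independent.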
